A study of Homo sapiens with 4 samples.

Results

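Chromosome 19 carries the densest set of ZNF genes in the human genome, and the transcripts of many of these genes were lower in differentiated SH-SY5Y cells that carried an shRNA against LSD1+8a. The genes described are those whose transcript cluster, the array's unit for a gene, lies on chromosome 19 by its identifier, has a single platform gene symbol of the form ZNF plus a number, and is protein-coding in the RefSeq gene table. These rules took 227 of the 22465 genes measured. The rule uses no measured difference, although it was drawn up with earlier results of these data known. Where a gene had several clusters, the one with the highest mean log2 signal stood for it, which applied to 2 of the genes.

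SH-SY5Y is an established line from a human neuroblastoma, and its cells become neuron-like under differentiating agents. Both groups were kept in retinoic acid (10 μM) over 4 days and afterwards in serum-free medium with the neurotrophin BDNF (50 ng/mL) over 3 days, so the controls were differentiated cells too. The 2 control arrays hold RNA of cells with a control shRNA and the other 2 hold RNA of cells with an shRNA against LSD1+8a, a form of the demethylase LSD1, encoded by KDM1A, whose transcript includes exon 8a. The title of the study ties this neuronal form to demethylation of lysine 9 of histone H3, and the labels tell nothing of clones, of shRNA sequences or of whether replicates were separate cultures, so the p-values rest on a spread among arrays that may be technical only.

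ZNF genes encode proteins with rows of C2H2 zinc fingers that read DNA. Most of those on chromosome 19 also carry a KRAB domain, which binds the corepressor TRIM28. TRIM28 in turn brings the histone methyltransferase SETDB1, which places H3K9 trimethylation, and HP1 proteins, so that the bound DNA, often a transposable element, is silenced. The genes arose by repeated tandem duplication and stand in clusters, and in several human cell types the zinc finger exons of these genes carry H3K9 trimethylation themselves.

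The name KRAB zinc finger genes was not checked against protein sequence here, and the choice rests on symbol and position alone. Some of the genes are known to lack the domain, among them ZNF146, ZNF444 and ZNF536. ZNF146 is almost wholly made of zinc fingers, and ZNF444 has a SCAN domain. How many lack it was not counted, and whether the genes called higher carry it was not checked. Close relatives of the family can share array probes. How the platform treats such probes is not stated in the labels. The values of neighbouring paralogues therefore cannot be taken as independent, and those of near-identical genes are uncertain.

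Promoter sequences are shown first because a short word is shared by every window found in the run of genes with the most falls. RefSeq promoter windows on GRCh38.p14 hold 250 bases before and 50 after an annotated gene start. Such a window was found for 198 of the 227 genes, with the first listed window taken where a gene had several. ZNF93 (chr19:19900696-19900995, plus strand) had the largest fall of all genes in the set, ZNF45 (chr19:43935233-43935532, minus strand) was lower and lies in another run, and ZNF296 (chr19:45076429-45076728, minus strand) was higher. Capitals mark the words TCCAATCA, which holds the CCAAT box, and GTCACTCA.
ZNF93: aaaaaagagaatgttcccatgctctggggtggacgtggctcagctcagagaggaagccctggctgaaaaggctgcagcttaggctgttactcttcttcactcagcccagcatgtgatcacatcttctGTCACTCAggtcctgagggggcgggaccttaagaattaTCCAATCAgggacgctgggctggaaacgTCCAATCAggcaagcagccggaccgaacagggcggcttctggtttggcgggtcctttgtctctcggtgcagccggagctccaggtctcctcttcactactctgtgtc
ZNF45: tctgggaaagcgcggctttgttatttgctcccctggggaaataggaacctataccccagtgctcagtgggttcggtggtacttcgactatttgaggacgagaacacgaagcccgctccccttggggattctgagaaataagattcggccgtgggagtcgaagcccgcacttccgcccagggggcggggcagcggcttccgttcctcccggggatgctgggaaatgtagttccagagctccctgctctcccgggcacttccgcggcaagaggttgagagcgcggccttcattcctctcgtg
ZNF296: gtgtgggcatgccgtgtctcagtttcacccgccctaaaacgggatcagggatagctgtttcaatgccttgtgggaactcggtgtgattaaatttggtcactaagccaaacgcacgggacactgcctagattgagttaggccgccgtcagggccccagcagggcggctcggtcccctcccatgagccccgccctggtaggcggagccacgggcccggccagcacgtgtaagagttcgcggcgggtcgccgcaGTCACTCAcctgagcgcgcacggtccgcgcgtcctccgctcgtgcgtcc

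The window of ZNF93 holds TCCAATCA in 2 copies and GTCACTCA in 1, that of ZNF45 holds neither, and that of ZNF296 holds GTCACTCA alone. The 65 bases around the copy of TCCAATCA nearest to the start are set side by side for 10 genes, with that copy in capitals. The first 8 genes belong to the run from ZNF101 to ZNF254 and the last 2 to the run from ZNF627 to ZNF791, the 2 runs that hold most copies of the word. All read along the strand of the gene.
ZNF93: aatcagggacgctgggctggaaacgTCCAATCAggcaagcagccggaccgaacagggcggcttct
ZNF486: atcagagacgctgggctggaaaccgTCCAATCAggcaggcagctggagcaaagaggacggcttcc
ZNF724: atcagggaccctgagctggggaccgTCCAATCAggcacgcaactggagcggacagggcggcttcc
ZNF730: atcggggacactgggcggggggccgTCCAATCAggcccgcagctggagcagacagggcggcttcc
ZNF430: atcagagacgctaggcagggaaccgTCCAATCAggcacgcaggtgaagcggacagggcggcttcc
ZNF492: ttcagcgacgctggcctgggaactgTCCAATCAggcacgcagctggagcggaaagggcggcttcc
ZNF91: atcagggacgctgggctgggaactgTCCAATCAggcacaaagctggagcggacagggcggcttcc
ZNF101: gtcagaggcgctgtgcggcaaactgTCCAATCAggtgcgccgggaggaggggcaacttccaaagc
ZNF627: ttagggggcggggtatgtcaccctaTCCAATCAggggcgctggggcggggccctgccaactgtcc
ZNF441: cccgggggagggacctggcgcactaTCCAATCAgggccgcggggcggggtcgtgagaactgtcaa

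The stretches came from chr19:19900864-19900928 (ZNF93, plus), chr19:20167131-20167195 (ZNF486, plus), chr19:23250408-23250472 (ZNF724, minus), chr19:23116947-23117011 (ZNF730, plus), chr19:21020574-21020638 (ZNF430, plus), chr19:22634246-22634310 (ZNF492, plus), chr19:23395491-23395555 (ZNF91, minus), chr19:19668743-19668807 (ZNF101, plus), chr19:11597363-11597427 (ZNF627, plus) and chr19:11766940-11767004 (ZNF441, plus). Each stretch holds 57 bases beside the word. Over these 57 bases, pairs of genes within the run from ZNF101 to ZNF254 shared a median of 66.7% of letters (26 genes, 325 pairs). Pairs within the run from ZNF627 to ZNF791 shared 50.9% (18 genes, 153 pairs), and pairs between both runs 36.8% (468 pairs). Relatives in a run are thus also alike at their starts, so a shared word is no independent event in each gene.

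KDM1A, which encodes LSD1, had log2 signals of 9.10 and 9.25 on the control arrays, against 8.76 and 8.78 on those with the LSD1+8a shRNA. Both LSD1+8a shRNA arrays were below both controls. The difference was -0.41 ± 0.09 (SE, n = 2 per group; limma adjusted p = 0.0299), a value for the whole gene that does not isolate exon 8a. It had no call when any 1 array was left out (adjusted p from 0.0559 to 0.194), after quantile normalization (0.0588) or after cyclic loess (0.0573).

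Of the 227 ZNF genes, 67 (29.5%) were lower and 5 (2.20%) higher with the LSD1+8a shRNA at a limma adjusted p under 0.05, and 155 did not pass. Over all genes, the same test called 23.3%, with 11.2% lower and 12.1% higher. The median difference over the ZNF genes was -0.21 on the log2 scale, with quartiles of -0.33 and -0.06 and a range from -0.60 to 0.42. The median over all genes was 0.08. Sizes were small: 37 genes were called and at least 1.3-fold lower (8.36% of all genes), 1 was called and at least 1.3-fold higher (5.2% of all genes), and 1 of the lower genes reached 1.5-fold (2.98% of all genes).

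Among the ZNF genes, 189 had a difference below 0 and 38 one above 0. Both LSD1+8a shRNA arrays were below both control arrays in 159 genes (27.7% of all genes were) and above them in 28 (46.7% of all genes were). The groups overlapped in 40 genes and were apart in the rest, as they were in 74.4% of all genes. The median log2 signal over the set was 6.79 and 6.83 on the control arrays, against 6.67 and 6.70 on those with the LSD1+8a shRNA. Replicates of one gene typically lay close, with a median SD of 0.07 for control cells and 0.06 for LSD1+8a shRNA cells.

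The calls depended on single arrays. Without control replicate 1, and likewise without control replicate 2, limma called 0 of the 227 genes and 0 of all genes, while at an unadjusted p under 0.05 it had 112 lower and 12 higher ZNF genes without the former and 58 and 6 without the latter. The median difference over the set was -0.27 and -0.15 in these fits. Without LSD1+8a replicate 1 most calls were lost, and the share of ZNF genes called lower was no longer above that of all genes. The median was -0.15. Without LSD1+8a replicate 2 many of the calls were lost as well, and the median was -0.25.

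Scaling moved the level of all genes but left the order of the groups. After cyclic loess, which removes any dependence of the difference on signal, 49 ZNF genes were lower and 3 higher, against 7.85% and 3.03% of all genes, and 47 of the 49 were among the 67. The median difference was then -0.24 for the set and 0.01 for all genes. With array medians centred, 75 ZNF genes were lower and 1 higher, against 12.2% lower and 1109 higher of all 22465 genes. The median was then -0.26 for the set and 0.03 for all genes.

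The other ZNF genes and the other genes of the chromosome are the natural references. The 224 protein-coding ZNF genes of other chromosomes had a median difference of -0.12, with 41 lower and 7 higher, and 160 of them were below 0. The 1042 other protein-coding genes of chromosome 19 had a median of 0.21, with 21 lower and 230 higher, and 155 of them were below 0. Their median log2 signal was 6.78 and 6.70 on the control arrays, against 6.96 and 6.93 on those with the LSD1+8a shRNA, so the arrays of these genes were ordered opposite to those of their ZNF neighbours. After cyclic loess the medians were -0.15 and 0.16. These are descriptions, and no test of one gene set against another was run.

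**Figure D1:**
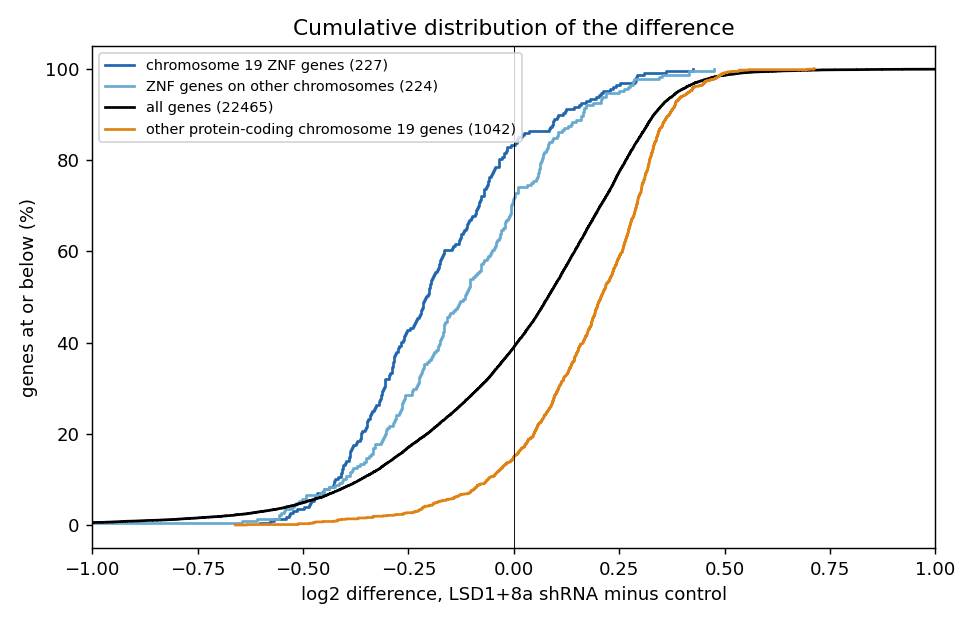
Cumulative share of genes (%) against the log2 difference, LSD1+8a shRNA minus control, for 4 sets of genes; values beyond the axis range are not drawn. Over most of the range the chromosome 19 ZNF genes lie furthest to the left, with 189 of 227 below 0, and the other 1042 protein-coding genes of the chromosome furthest to the right.

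The difference depended on signal over all genes, with dim genes above 0 and bright genes below on these arrays, so the ZNF genes were set beside genes of the same range of signal. At a mean log2 signal from 5 to 6, 35 ZNF genes had a median difference of -0.23 against 0.21 for all genes and 0.30 for other protein-coding genes of chromosome 19. From 6 to 7, 91 ZNF genes had -0.17 against 0.07 and 0.26. From 7 to 8, 80 ZNF genes had -0.27 against -0.05 and 0.14, and 30 of the 80 (37.5%) were lower against 18.6% of all genes at that level. From 8 to 9, 10 ZNF genes had -0.25 against -0.09 and 0.06. The 9 ZNF genes from 4 to 5 were the exception, with a median of 0.04, 0 calls and 0.19 for all genes. ZNF genes of other chromosomes were also below all genes at every step, though less far than those of chromosome 19. Their medians were 0.17 from 4 to 5, -0.20 from 5 to 6 and -0.11 from 6 to 7. From 7 to 8 the median was -0.14, and from 8 to 9 it was -0.10. A lower value at matched signal was thus not particular to chromosome 19.

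**Figure D2:**
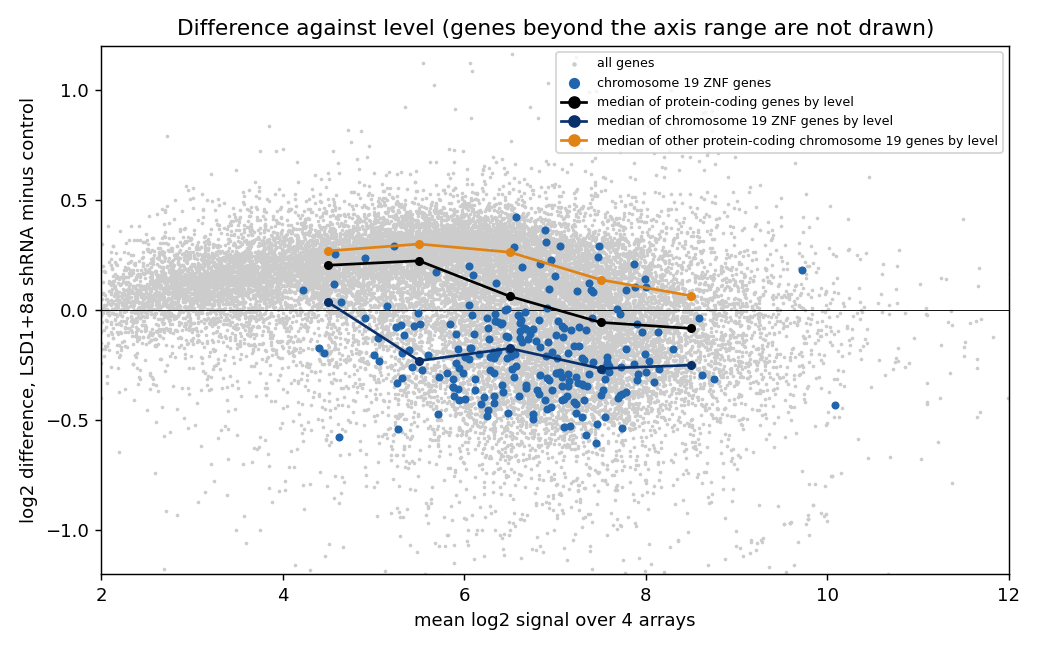
Log2 difference against mean log2 signal over the 4 arrays for each gene (points), with medians in steps of 1 from 4 to 9 (lines). The line of the chromosome 19 ZNF genes runs below that of protein-coding genes and that of the other protein-coding genes of the chromosome at every step.

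The genes with the largest falls came mostly from one stretch of the chromosome. ZNF93, which in human pluripotent cells represses a family of LINE-1 elements, had log2 signals of 7.72 and 7.79 in control and 7.19 and 7.11 in LSD1+8a shRNA cells. The gap between groups was several times that within them. The largest falls and rises named were picked among called genes whose groups did not overlap, so their lack of overlap was fixed by the choice. The difference was -0.60 ± 0.09 (SE; limma adjusted p = 0.0129), or 1.52-fold lower.

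ZNF486 read 7.59 and 7.66 in control and 7.06 and 7.05 in LSD1+8a shRNA cells (-0.57 ± 0.08; limma adjusted p = 0.0136). ZNF724 read 7.95 and 8.07 against 7.52 and 7.42 (-0.53 ± 0.09; 0.0185). ZNF730 read 7.27 and 7.44 against 6.91 and 6.74 (-0.53 ± 0.10; 0.0232). All 3 lie in the run from ZNF101 to ZNF254, as do ZNF253, ZNF430, ZNF492 and ZNF99.

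ZNF253 read 7.63 and 7.81 in control and 7.15 and 7.27 in LSD1+8a shRNA cells (-0.52 ± 0.10; limma adjusted p = 0.0226). ZNF430 read 7.70 and 7.89 against 7.29 and 7.32 (-0.49 ± 0.10; 0.0240), and ZNF492 read 7.44 and 7.64 against 7.09 and 7.02 (-0.48 ± 0.10; 0.0254). In each of these 3 genes the second control array was the highest of the 4. ZNF99 read 5.37 and 5.71 in control and 5.05 and 4.95 in LSD1+8a shRNA cells, with the widest control spread of the 10 largest called falls (-0.54 ± 0.12; limma adjusted p = 0.0314).

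Of the 10 largest falls that passed the test, 8 lay in that run, and ZNF627 and ZNF45 were the other 2. ZNF627 read 7.38 and 7.47 in control and 6.79 and 7.01 in LSD1+8a shRNA cells (-0.52 ± 0.10; limma adjusted p = 0.0238). ZNF45 read 7.01 and 6.99 against 6.46 and 6.54 (-0.50 ± 0.08; 0.0182). The controls of ZNF45 were nearly equal. Without LSD1+8a replicate 1 the calls of ZNF627, ZNF253, ZNF45 and ZNF430 were lost (adjusted p from 0.0516 to 0.0726), and without LSD1+8a replicate 2 that of ZNF99 (0.0545). All 10 kept their call after quantile normalization, with array medians centred and after cyclic loess (adjusted p from 0.0264 to 0.0437 in the last).

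A gene outside the rule for named genes, chosen after its values were seen, had a difference of the same size without a call. ZNF404 read 4.72 and 5.10 in control and 4.03 and 4.62 in LSD1+8a shRNA cells. The groups did not overlap, but the replicates lay far apart, and the difference of -0.58 ± 0.20 (SE) had a limma adjusted p of 0.0673. At the threshold itself, ZNF493 (adjusted p = 0.0488), ZNF665 (0.0494) and ZNF814 (0.0499) were just inside, and ZNF417 (0.0506), ZNF284 (0.0533) and ZNF699 (0.0533) just outside, with differences from -0.27 to -0.40.

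**Figure D3:**
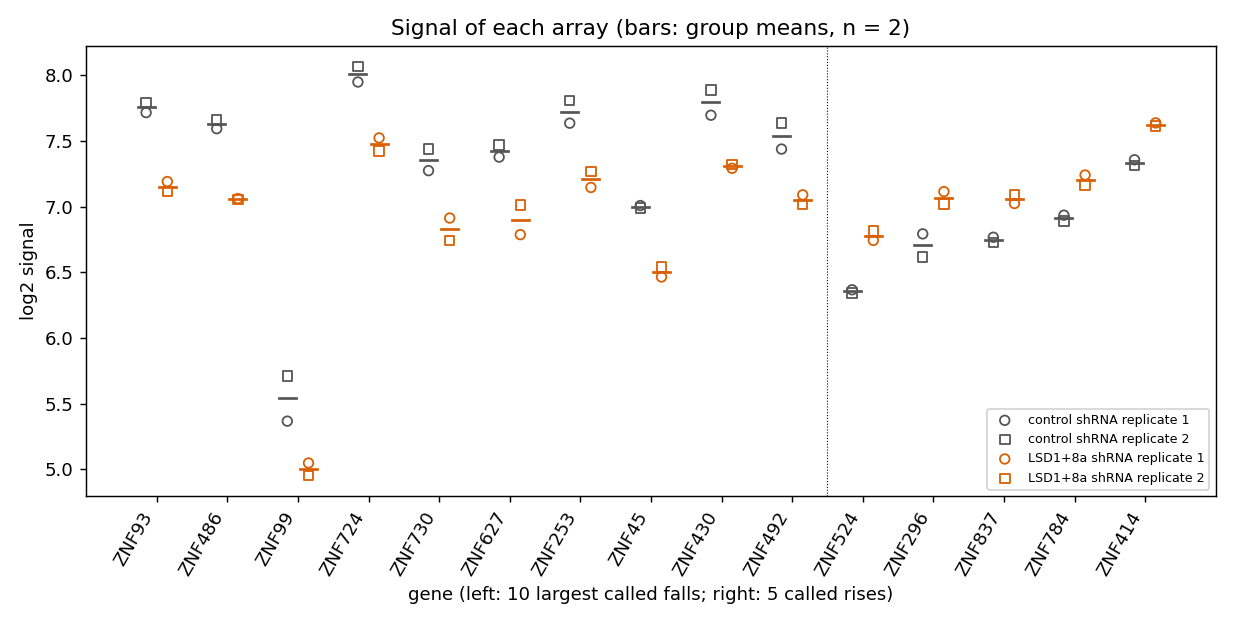
Log2 signal of each of the 4 arrays for the 10 largest called falls and the 5 called rises, with circles for replicate 1, squares for replicate 2 and bars for group means (n = 2). The 15 genes were picked among called genes whose groups do not overlap, so the lack of overlap is set by that choice. ZNF99 has the widest control pair.

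Only 5 of the ZNF genes were higher. ZNF524, whose protein has been described at telomeres, read 6.37 and 6.34 in control and 6.74 and 6.81 in LSD1+8a shRNA cells (0.42 ± 0.08; limma adjusted p = 0.0240). ZNF296, which in mouse works with pluripotency factors, read 6.79 and 6.62 against 7.11 and 7.02 (0.36 ± 0.10; 0.0403). Lack of overlap was a condition for naming these rises, as for the falls.

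ZNF837 read 6.77 and 6.73 in control and 7.02 and 7.09 in LSD1+8a shRNA cells (0.31 ± 0.08; limma adjusted p = 0.0412). ZNF784 read 6.93 and 6.89 against 7.24 and 7.16 (0.29 ± 0.08; 0.0472), and ZNF414 read 7.36 and 7.31 against 7.64 and 7.61 (0.29 ± 0.08; 0.0454). All 5 lay outside the long runs of ZNF genes, and all lost their call when any 1 array was left out. With array medians centred ZNF524 alone was called, and after cyclic loess ZNF296 (adjusted p = 0.0585) and ZNF784 (0.0533) were not.

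Genes known for a role were lower only in part. ZNF224, a repressor of the aldolase A gene, read 7.09 and 7.09 in control and 6.69 and 6.68 in LSD1+8a shRNA cells, the tightest replicates among the named genes. Its difference was -0.41 ± 0.08 (SE; limma adjusted p = 0.0248). ZNF85, which lies close to ZNF93 and belongs to the same branch of the family, read 6.92 and 7.09 against 6.60 and 6.65 (-0.38 ± 0.09; 0.0348). Without LSD1+8a replicate 1 (adjusted p = 0.0716 and 0.106) and without LSD1+8a replicate 2 (0.0523 and 0.0616) neither ZNF224 nor ZNF85 was called. ZNF91, which represses SVA elements, read 8.68 and 8.85 against 8.38 and 8.56 and missed the threshold (-0.30 ± 0.10; adjusted p = 0.0700). ZNF43, in the same run as ZNF91, read 7.97 and 8.15 against 7.85 and 7.69 and missed it as well (-0.29 ± 0.10; 0.0706). Groups did not overlap in ZNF91 or ZNF43, and both were called when only protein-coding genes were tested (adjusted p = 0.0421 and 0.0431).

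Another 7 genes with a described role had differences from -0.10 to 0.23, and none passed. ZNF274, a KRAB protein that brings SETDB1 to the 3′ ends of ZNF genes, read 6.38 and 6.19 in control and 6.45 and 6.36 in LSD1+8a shRNA cells. Its groups overlapped (0.12 ± 0.10; limma adjusted p = 0.345). ZNF536, which in mouse cells restrains neuronal differentiation, also overlapped, with 6.43 and 6.47 against 6.46 and 6.44 (0.00 ± 0.08; 0.988). The histone pre-mRNA processing factor ZNF473 differed by -0.04 ± 0.08 (adjusted p = 0.691), the imprinted gene ZNF331 by -0.09 ± 0.08 (0.404), ZNF264 by -0.10 ± 0.08 (0.363), ZNF382 by 0.10 ± 0.08 (0.348) and the SCAN gene ZNF444 by 0.23 ± 0.09 (0.0957). A missed threshold does not show that levels were equal.

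The 5 clusters with the highest mean signal were those of ZNF888, ZNF358, ZNF146, ZNF91 and ZNF134. A signal depends on a cluster's own probes, so the order is no order of transcript level. ZNF888 read 10.26 and 10.34 in control and 9.81 and 9.93 in LSD1+8a shRNA cells (-0.43 ± 0.09; limma adjusted p = 0.0270). ZNF146 read 8.89 and 8.91 against 8.58 and 8.60 (-0.31 ± 0.08; 0.0388). Both were apart on all arrays, and both lost their call after quantile normalization (adjusted p = 0.110 and 0.0961) and after cyclic loess (0.0779 and 0.0948). ZNF358 read 9.66 and 9.61 against 9.94 and 9.69, with the first LSD1+8a shRNA array above the rest, and passed only after quantile normalization (0.18 ± 0.10; limma adjusted p = 0.211 as deposited and 0.0440 after it). ZNF134 overlapped, with 8.63 and 8.56 against 8.63 and 8.50 (-0.04 ± 0.09; limma adjusted p = 0.774).

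Calls were spread unevenly along the chromosome. Runs were formed from ZNF genes that follow each other in the RefSeq gene table with at most 2 other protein-coding genes between them. This gave 32 runs, of which 15 were single genes. The 7 runs of 10 or more genes held 167 genes, of which 60 (35.9%) were lower, 0 were higher and 156 were below 0. Their median difference was -0.25. The other 60 genes had 7 lower (11.7%) and 5 higher (8.33%), with 33 below 0 and a median of -0.02. Over all genes, 11.2% were lower, 12.1% higher and 39.0% below 0. The length of 10 was chosen after the values were seen, so this split is a description.

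The run from ZNF101 to ZNF254 stood lowest among the 7 long runs. Of its 33 genes 23 were lower (69.7%) and all 33 were below 0, against 11.2% and 39.0% of all genes. Both LSD1+8a shRNA arrays were below both controls in 32, against 27.7% of all genes. The exception was ZNF676, with 4.35 and 4.62 in control and 4.21 and 4.42 in LSD1+8a shRNA cells. The median difference of the run was -0.38, with values from -0.60 (ZNF93) to -0.13 (ZNF101, not called). The median log2 signal over the run was 7.27 and 7.37 on the control arrays, against 6.91 and 6.97 on those with the LSD1+8a shRNA. The 10 genes of the run without a call were ZNF91, ZNF43, ZNF101, ZNF208, ZNF254, ZNF429, ZNF676, ZNF682, ZNF714 and ZNF738.

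The other long runs had medians nearer to 0. In the run from ZNF160 to ZNF331, 5 of 10 genes were lower, with a median of -0.30, and in that from ZNF283 to ZNF180, 8 of 19 were lower, with a median of -0.29. The run from ZNF577 to ZNF888 had 5 of 26 lower and a median of -0.24. Every gene of the latter 2 runs was below 0. Of the genes from ZNF627 to ZNF791, 5 of 24 were lower (median -0.20), and of those from ZNF565 to ZNF573, 7 of 22 (median -0.19). The run from ZNF264 to ZNF8, towards the end of the chromosome, had 7 of 33 lower and 6 above 0, with a median of -0.10. Shares lower in these runs went from 19.2% (ZNF577 to ZNF888) to 50% (ZNF160 to ZNF331), against 11.2% of all genes. The run from ZNF577 to ZNF888 had a median signal of 7.20, and 18.6% of all genes from 7 to 8 were lower, a share close to its own.

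Short runs went both ways. Each count here comes from 5 to 8 genes, and over all genes 11.2% were lower and 12.1% higher. All 8 genes from ZNF699 to ZNF562 were below 0, with 2 lower and a median of -0.29. The 6 genes from ZNF579 to ZNF580 had 2 higher, ZNF524 and ZNF784, 5 above 0 and a median of 0.23. The 6 genes from ZNF497 to ZNF446 had 1 higher, ZNF837, and a median of 0.14. The 7 genes from ZNF582 to ZNF835 had 0 calls and a median of -0.02, the 5 from ZNF302 to ZNF792 1 lower and -0.08, and the 5 from ZNF554 to ZNF77 1 lower and -0.09.

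Genes beside the long runs were read as a local reference, and other genes inside them were described. The nearest 3 protein-coding genes on each side, 40 genes in all, had 7 higher (17.5%), 0 lower and 5 below 0, with a median of 0.17. Of all genes, 12.1% were higher, 11.2% lower and 39.0% below 0. Inside the runs lie 16 genes that are not in the set, of which VN1R2 and PPP2R1A are also among the 40. The 16 had a median of -0.02 with 8 below 0, and many are zinc finger genes themselves, so they are no outside reference. Without a call, ZFP30, ZNF585A and ZNF585B were below 0 and ZSCAN4 and ZSCAN18 above it. Among the 16, ZFP14 (-0.63; limma adjusted p = 0.0126), ZFP82 (-0.47; 0.0224) and ZIK1 (-0.47; 0.0194), all zinc finger genes without the ZNF symbol, and RPSA2, a copy of a ribosomal protein gene (-0.48; 0.0260), were lower. ZSCAN1, a SCAN zinc finger gene, was higher (0.33; 0.0365). The retroviral envelope gene ERVV-2, between the runs from ZNF577 to ZNF888 and from ZNF160 to ZNF331, was higher at 0.51 ± 0.13 (SE; adjusted p = 0.0377) from a dim signal of 3.95 and 3.80, and its copy ERVV-1 was not called (0.14; 0.214).

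**Figure D4:**
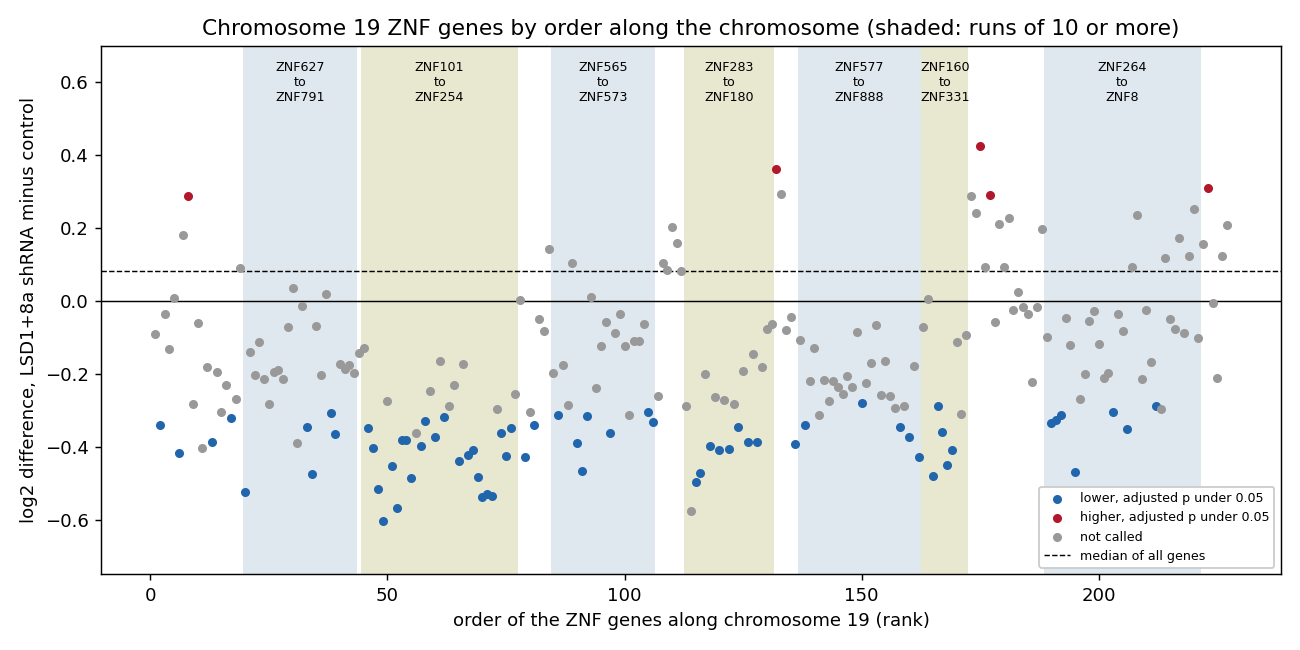
Log2 difference, LSD1+8a shRNA minus control, of the 227 ZNF genes in their order along chromosome 19, with the 7 runs of 10 or more genes shaded. Blue points are the 67 lower and red points the 5 higher genes; the run from ZNF101 to ZNF254 lies wholly below 0, and no red point falls in a shaded run.

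The shared promoter word followed the runs. TCCAATCA, read on both strands, was in 49 of the 198 windows (24.7%), in 16 of 183 windows of ZNF genes on other chromosomes (8.74%), in 6 of 874 of other protein-coding genes on chromosome 19 (0.686%) and in 440 of all 27305 RefSeq windows (1.61%). It had the largest difference in share between the ZNF genes of chromosome 19 and other protein-coding genes among all words of 8 bases, and was picked for that. All 26 windows of the run from ZNF101 to ZNF254 held it, as did 19 of 23 in the run from ZNF627 to ZNF791. Of the 149 windows elsewhere in the set, 4 held it, all in the run from ZNF554 to ZNF77. GTCACTCA was in 37 of the 198 windows (18.7%), in 16 of 183 of ZNF genes on other chromosomes (8.74%) and in 1.23% of all windows. Within the set it was in 20 of 26 and 14 of 23 windows of these runs and in 3 of 149 elsewhere. Copies of both words on 1 strand cannot overlap, and 34 of the 49 genes with TCCAATCA held both.

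Copies kept their place in the run with the most falls. The 26 genes from ZNF101 to ZNF254 held 40 copies of TCCAATCA, 24 to 88 bases before the start and all on the strand of the gene. Of these genes, 12 had 1 copy and 14 had 2, spaced 28 bases apart in 2 genes and 29 in the other 12. In the run from ZNF627 to ZNF791 each of 19 genes had 1 copy, 32 to 122 bases before the start, and 18 copies lay on the strand of the gene.

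Genes with TCCAATCA had a median difference of -0.30 with 23 of 49 lower. Genes without it had one of -0.18 with 33 of 149 lower and 4 higher, and 11.2% of all genes were lower and 12.1% higher. The runs that hold the word differed from each other. The 26 genes with it in the run from ZNF101 to ZNF254 had a median of -0.37 and 18 lower, while the 19 with it in the run from ZNF627 to ZNF791 had -0.20 and 4 lower. Outside both runs the order was the opposite, with -0.08 and 1 lower for the 4 genes with the word and -0.18 and 32 lower for the 145 without it. These 4, ZNF555, ZNF556, ZNF57 and ZNF77, are neighbours in the run from ZNF554 to ZNF77, each with repeated copies. The opposite order thus rests on 1 small run. The ETS-family core CCGGAAG, read on both strands, was in 86 of the 198 windows (43.4%) against 10.7% of all windows. ZNF genes on other chromosomes held it in 69 of 183 windows (37.7%), so it was not particular to chromosome 19. It was in 19 of 26 windows from ZNF101 to ZNF254 and in 1 of 23 from ZNF627 to ZNF791. Genes with the core had a median of -0.25 with 31 of 86 lower, and genes without it -0.18 with 25 of 112 lower. Outside both runs the medians were -0.21 (n = 66) with it and -0.11 (n = 83) without it. For GTCACTCA the medians over the set were -0.34 (n = 37) with it and -0.19 (n = 161) without it. A match is a stretch of letters, and nothing was measured of a factor bound there.

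**Figure D5:**
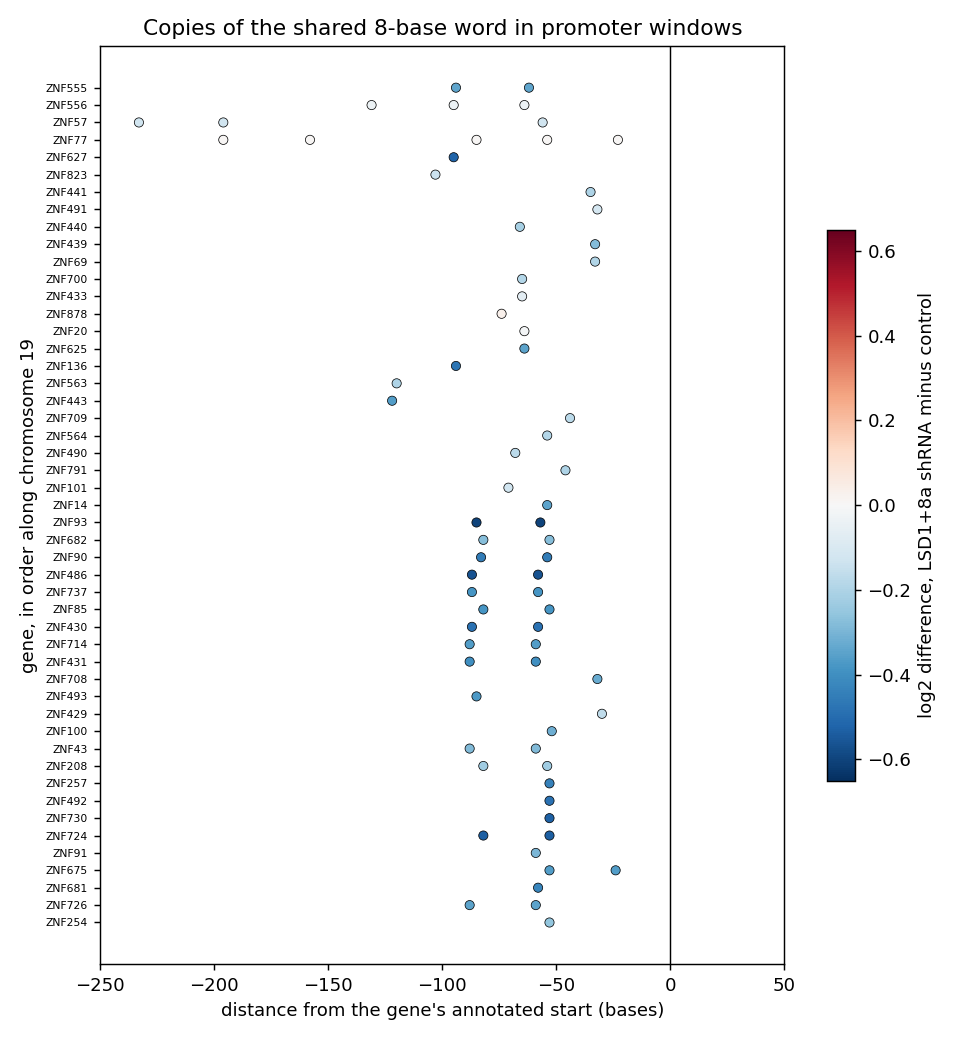
Position of each copy of the shared word of 8 bases in the promoter windows of 49 ZNF genes, in bases from the annotated start, with genes in their order along chromosome 19 and colour for the log2 difference. From ZNF93 on, many genes carry a pair of copies 28 or 29 bases apart at nearly the same distance from the start, and genes with a pair and genes with 1 copy are both among the darker blue ones.

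Promoter base composition moved with the difference among ZNF genes. Windows of the lower genes had a median G and C content of 58.3% (n = 56), those of the higher genes 65% (n = 4) and those not called 61.0% (n = 138). The 46 ZNF genes with windows of at least 65% G and C had a median difference of -0.07, and the 152 below it one of -0.22. ZNF genes of other chromosomes went the same way, with -0.065 (n = 74) and -0.18 (n = 109) at the same limit. The other protein-coding genes of chromosome 19 had medians of 0.17 and 0.24, in the opposite order and above 0 on both sides. The background features of the array were sorted by the G and C count of their probes. They differed by 0.24 to 0.27 at counts of 14 to 17 and by -0.04 to -0.08 at counts of 3 to 9. At counts of 18 to 24 they differed by 0.04 to 0.19, and at 25 by -0.06, so the difference did not rise steadily with the count. Probe sequences of the genes were not used here, and the part of probe composition in these differences was not tested.

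The machinery through which KRAB proteins act was described from a list of 16 genes, 14 of them measured. All 14 were below 0, with a median of -0.23, and 6 were lower and 0 higher, against 11.2% and 12.1% of all genes. The median signal of the list was 8.03, and all genes with a signal from 8 to 9 had a median difference of -0.09, with 63.8% below 0 and 18.2% lower. TASOR, the scaffold of the HUSH silencing complex, read 7.73 and 7.89 in control and 7.18 and 7.18 in LSD1+8a shRNA cells (-0.63 ± 0.09; limma adjusted p = 0.0133). SUMO2, the modifier through which TRIM28 binds SETDB1, read 9.66 and 9.77 against 9.12 and 9.07 (-0.62 ± 0.09; 0.0126). Both kept apart on all arrays and kept their call after cyclic loess.

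CBX3, an HP1 protein, was lower at -0.50 ± 0.10 (SE; limma adjusted p = 0.0268), ATF7IP, a partner of SETDB1, at -0.35 ± 0.08 (0.0345), the chromatin remodeller SMARCAD1 at -0.35 ± 0.10 (0.0495) and the HUSH subunit PPHLN1 at -0.29 ± 0.09 (0.0493). After cyclic loess these 4 were not called (adjusted p from 0.0636 to 0.0974). TRIM28 itself read 9.46 and 9.46 in control and 9.62 and 9.27 in LSD1+8a shRNA cells, so that its groups overlapped (-0.02 ± 0.12; limma adjusted p = 0.920), and its sign turned after cyclic loess (0.09), after quantile normalization (0.11) and without LSD1+8a replicate 2 (0.15). SETDB1 did not pass (-0.18 ± 0.08; limma adjusted p = 0.120).

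Markers of dividing cells were mostly lower in the same arrays. All 8 were below 0 and 7 were lower, with a median of -0.69, and their summed log2 signal was 61.6 and 64.4 in control and 58.0 and 57.8 in LSD1+8a shRNA cells. The 8 adrenergic neuroblast markers measured, of 10 listed, summed to 73.8 and 74.6 against 76.0 and 74.3, with 2 higher and 1 lower, and had median signals from 9.09 to 9.56. Mesenchymal markers (8 of 9 measured) summed to 48.3 and 47.7 against 46.2 and 48.0, with 2 lower. Glial markers (3 of 5) summed to 18.3 and 18.0 against 18.84 and 19.001, with 2 higher, and blood markers (3 of 4) to 10.4 and 10.2 against 10.82 and 11.01, with 0 called. The part of cell division in the differences of the ZNF genes was not tested, and in bulk RNA a smaller share of cells with a transcript and less of it per cell cannot be told apart.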

How the data were processed

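Transcripts were measured with Affymetrix human transcriptome arrays (version 2), 2 per group and 4 in all. Values were deposited as log2 signals, and the submitters' processing notes name RMA as the tool behind them. The labels name no software, annotation or genome build for it. RMA gives no detection call, and low signals may therefore stem from genes that are not expressed. Of 70523 features, 67528 are transcript clusters, of which 23781 had 1 platform symbol and gave 22465 genes. On chromosome 19, 230 clusters had a ZNF symbol alone. Of these, 1 (ZNF781, a transcribed pseudogene) was left out, and 229 clusters of 227 genes stayed. Another 9 clusters, with a ZNF symbol beside a second symbol, were not among the 230 and were not used.

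LSD1+8a shRNA minus control was fitted over all 22465 genes by lmFit and eBayes of limma 3.58.1 (R 4.3.3) on the deposited values, with no filter. P-values were adjusted over all these genes (Benjamini-Hochberg, threshold 0.05). The number of arrays limits precision, with 2 residual degrees of freedom per gene and 5.41 borrowed from all genes. Errors of differences are limma's standard errors.

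The members, gene lists and alternatives were chosen with earlier results of these data known. Named genes are KDM1A, TRIM28, the 10 largest called falls and up to 10 rises without overlap, the 5 highest signals, 14 members with a known role, and the called genes of the corepressor list. Gene order came from the RefSeq table and promoter windows from RefSeq (both GRCh38.p14). The cluster identifiers were used for no coordinates. The planned grouping by KRAB box and finger number was not run, since protein sequences were not used here. Alternatives were quantile normalization, median centring and cyclic loess, fits without 1 array, a block for the replicate number, a variance trend, a filter on level, the mean over clusters, protein-coding genes alone and a threshold of 0.01. Pandas 2.3.3 and matplotlib 3.10.9 were used for summaries and figures.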

Additional observations from a re-analysis of the deposited data

How the results depend on the processing

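The median difference stayed below 0 in all fits, and the count of higher ZNF genes rested on the scaling. Over the fits that leave out 1 array, the lower ZNF genes numbered from 0 to 34, the higher ones 0 in each, the median difference ran from -0.27 to -0.15, and KDM1A from -0.48 to -0.33 (limma adjusted p from 0.0559 to 0.194). With array medians centred 1 ZNF gene was higher (1109 of all 22465 genes were) and the median was -0.26. After cyclic loess 3 ZNF genes were higher (3.03% of all genes were) and the median was -0.24. At an adjusted p under 0.01, 0 were lower and 0 higher, and KDM1A (difference -0.41) was not called. KDM1A was -0.29 after quantile normalization and -0.30 after cyclic loess, without a call in either. Signs turned in genes near 0. With 1 array left out, ZNF134 ran from -0.10 to 0.030, ZNF536 from -0.017 to 0.021 and TRIM28 from -0.19 to 0.15. After quantile normalization they were 0.067, -0.017 and 0.11, and after cyclic loess 0.058, -0.062 and 0.089. With medians centred ZNF536 was -0.049. The cause of these changes was not tested.

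With the replicate number as a block, 93 ZNF genes were lower and 7 higher, against 15.7% lower and 4425 higher of all 22465 genes. All 67 and all 5 called before were among them, and the median was -0.21. ZNF91 and ZNF43 were called in this fit (limma adjusted p = 0.0299 and 0.0471). Arrays with the same number had deviations from their group means that correlated at 0.02 over all genes and 0.29 over the ZNF genes, from 2 pairs. The labels tie no number to a shared culture or day, so the number was not taken as a pairing, and whether it is one was not tested further. Tested among protein-coding genes alone, 90 ZNF genes were lower and 7 higher, against 17.1% lower and 3648 higher of all 17085 such genes. A variance trend gave 71 and 5, the mean over clusters 67 and 5, quantile normalization 51 and 7, and the filter on level 62 and 5 of 169 genes.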

Other observations

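A further set of zinc finger genes of chromosome 19, taken by symbol alone, moved in part like the ZNF genes. Symbols were ZFP, ZSCAN or ZIM plus a number, ZIK1, or ZNF plus a number and a letter, so zinc finger genes with other symbols are not in it. Of these 16 genes, 4 were lower (25%) and 1 was higher (6.25%) by limma, against 11.2% and 12.1% of all genes. The median difference was -0.12. ZFP14 read 6.66 and 6.80 in control and 6.08 and 6.11 in LSD1+8a shRNA cells. ZNF780A read 6.50 and 6.76 against 6.18 and 6.25, a difference of -0.42 ± 0.11 (SE; limma adjusted p = 0.0381). ZFP82 and ZIK1 were lower and ZSCAN1 higher, as given above. The groups of all 5 called genes did not overlap. The pseudogene ZNF781 read 5.95 and 6.08 against 5.81 and 5.89 and was not called (-0.17; limma adjusted p = 0.180). For the gene ZNF529 the cluster used differed by -0.29 and a second, dimmer cluster by 0.00 to 2 decimals, so that the value of a gene can depend on its cluster.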
